A study of Mus musculus with 6 samples.

Results

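The miR-148 and miR-152 family has 3 members on the mouse miRNA array, miR-148a, miR-148b and miR-152, out of 750 miRNA assays listed. They were selected by assay name (mmu-miR-148a, mmu-miR-148b and mmu-miR-152, without the # that marks the opposite strand of a hairpin). The samples were monocytes freshly isolated from 3 DBA/1 mice. Each mouse gave 1 sample of classical, inflammatory Ly6Chigh monocytes and 1 sample of non-classical, patrolling Ly6Clow monocytes, so that 3 samples per subset were compared. Age and sex of the mice are not given in the labels, and no treatment or sorting gate is named there. From each sample, 10 ng of total RNA was reverse transcribed with stem-loop primers, preamplified and measured on TaqMan low-density array cards. The readout is the threshold cycle (Ct) of each reaction, which is lower when more template is present. A step of 1 cycle equals 1 log2 unit.

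A miRNA guides the silencing complex to messenger RNAs mainly through its seed, the bases near its 5′ end, and miRNAs with 1 seed can repress overlapping sets of targets. Members of the miR-148 and miR-152 family are known to repress the DNA methyltransferase Dnmt1. In dendritic cells they are known to dampen the response to Toll-like receptor ligands through the kinase CaMKIIα, and miR-148a has been linked to macrophage polarization.

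The mature sequences are shown because they define the family, with the seed (bases 2 to 8) in capitals, 5′ to 3′, from RefSeq on GRCm38.p6.
miR-148a-3p: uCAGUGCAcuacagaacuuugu
miR-148b-3p: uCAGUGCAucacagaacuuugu
miR-152-3p: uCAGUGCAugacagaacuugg
Of the 1679 mature mouse miRNAs in that table, these 3 were the ones with this seed. Counted from the 5′ end, miR-148b differs from miR-148a at 2 of 22 positions, as C9U and U10C. miR-152 differs from miR-148a at 3 of 21 positions, as C9U, U10G and U20G. The bases that distinguish the 3 members therefore lie outside the seed.

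The 3 mature forms come from 3 chromosomes. miR-148a-3p lies at chr6:51269829-51269850 on the minus strand, within the span of the predicted gene Gm38821. miR-148b-3p lies at chr15:103285185-103285206 on the plus strand, within the span of Copz1 on the same strand. miR-152-3p lies at chr11:96850439-96850459 on the plus strand, within the span of Copz2 on the same strand. Copz1 and Copz2 encode paralogous zeta subunits of the COPI vesicle coat. Whether these places are exonic or intronic was not analysed here.

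One sample stood apart, and the main results are given with and without it in what follows. On card A, the first of the 2 cards in the listed order, which holds the 3 members, Ct values of the Ly6Chigh sample of mouse 1 had Spearman correlations of 0.10 to 0.15 with the other 5 samples over 127 tested assays. Among the other 5 samples the coefficients were 0.73 to 0.94, and assays do not count as independent replicates here. The blood-cell miRNAs miR-223 (myeloid), miR-142-3p and miR-142-5p (pan-blood) were all undetected, at a Ct of 40, in this sample. All 3 were detected in the other 5 samples. Their summed level relative to U6 was 3.03 to 3.9 on the log2 scale in the Ly6Chigh samples of mice 2 and 3 and 1.42 to 3.14 in the Ly6Clow samples. In the Ly6Chigh sample of mouse 1, these markers thus go against the monocyte label on card A. The median Ct of the tested card A assays was also 40 there, so undetected reactions were not confined to these markers. The cause was not tested.

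On card A, 89.9% to 96.3% of the Ct values of detected assays were whole numbers of cycles to within 0.05, so differences are read in steps of about 1 cycle. An assay counted as detected when its Ct was below 35, and 146 to 294 miRNAs per sample met this limit over both cards. In bulk RNA of this kind, fewer cells of a type and less RNA per cell cannot be told apart. The Ly6Clow samples of mice 1 and 2 had the same Ct within 0.05 cycles for 67 of the 113 card A assays detected in both, or 59.3%, against at most 30.6% for the other pairs of samples. Their detected assays and U6 values differed, and they were counted as 2 samples.

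miR-148a had a Ct of 33.99, 28.97 and 25.95 in the Ly6Chigh samples of mice 1, 2 and 3 and of 26.96, 26.98 and 28.97 in the Ly6Clow samples. It was detected in all 6 samples, and its latest signal was in the Ly6Chigh sample of mouse 1. In the other 5 samples its Ct stayed within about 3 cycles.

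miR-148b, whose mature form is nearest to that of miR-148a, had a Ct of 23.98, 31.97 and 28.98 in the Ly6Chigh samples and of 28.96, 28.98 and 30.97 in the Ly6Clow samples. Here the Ly6Chigh sample of mouse 1 had the earliest signal of all 6. It was the opposite of what this sample showed for miR-148a.

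miR-152 had a Ct of 33.96, 32.96 and 29.96 in the Ly6Chigh samples and of 30.97, 30.98 and 31.96 in the Ly6Clow samples. It was detected in all 6 samples, and its Ct was later than that of miR-148a in 5 of them. Amplification efficiencies of the assays are not given, so the order of Ct values between members describes the assays and not the number of molecules.

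**Figure D1:**
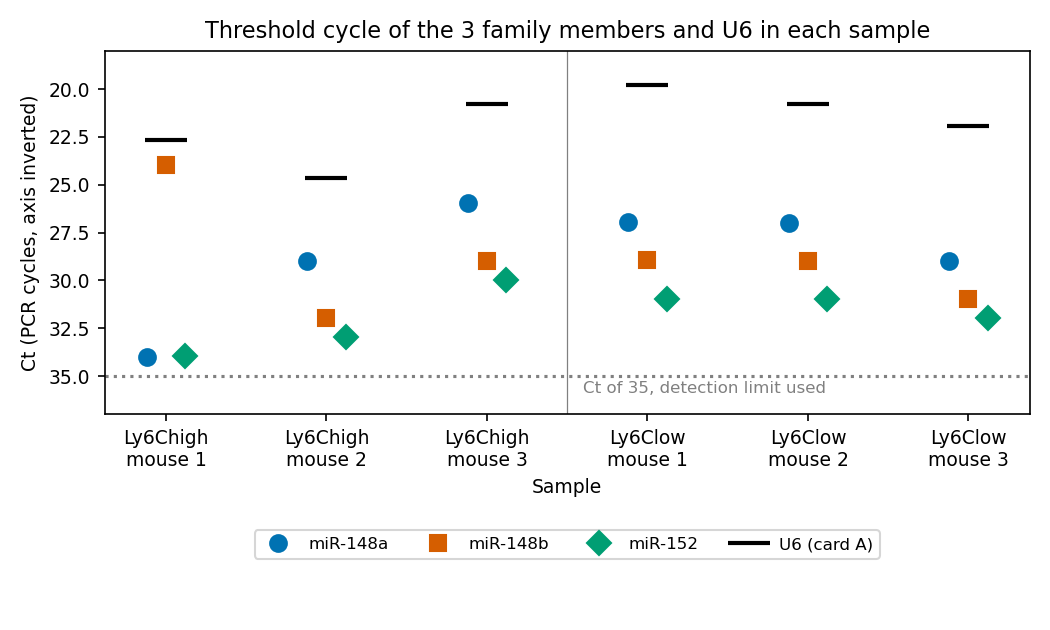
Threshold cycle (Ct, PCR cycles, axis inverted so that more template lies higher) of miR-148a, miR-148b, miR-152 and the reference U6 in each of the 6 samples (1 point per sample, no error bars). In 5 samples the order is miR-148a, miR-148b, miR-152, whereas in the Ly6Chigh sample of mouse 1 miR-148b lies at 23.98 and the other members at about 34.

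The Ly6Chigh sample of mouse 1 had the most extreme Ct for all 3 members, far from the rest for miR-148a and miR-148b and 1 step beyond the next sample for miR-152. Against the median of the other 5 samples, the Ct in this sample was later by 7.02 cycles for miR-148a and by 2.98 for miR-152, and earlier for miR-148b, with a difference of −5.00. Over the 127 tested card A assays, this deviation ran from −16.03 to 21.03 cycles with a median of 7.0, and miR-148b had the 14th lowest value. The 3 members were therefore displaced unequally in a sample in which most assays were shifted.

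The question of the design was which miRNAs differ between the 2 subsets. Expression was taken as −ΔCt, the Ct of U6 on the same card minus the Ct of the miRNA, which is a log2 scale on which higher means more miRNA. U6 is a small nuclear RNA used as the reference. Its own Ct on card A was later in Ly6Chigh than in Ly6Clow monocytes by 2.86 cycles in mouse 1 and 3.89 in mouse 2, and earlier in mouse 3, with a difference of −1.15. The members' raw and normalized differences can therefore have opposite signs, and both are given.

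Relative to U6, miR-148a was at −11.33, −4.32 and −5.17 in the Ly6Chigh samples of mice 1, 2 and 3 and at −7.16, −6.21 and −7.05 in the Ly6Clow samples. The Ly6Chigh values of mice 2 and 3 lay above all Ly6Clow values, and that of mouse 1 lay below them. The means were −6.94 ± 3.83 (SD, n = 3) and −6.81 ± 0.52 (SD, n = 3), a difference of −0.13 (standard error 2.26, 95% confidence interval −5.68 to 5.41) with an adjusted p of 0.985 in limma.

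The within-mouse differences of miR-148a relative to U6 were −4.17, 1.90 and 1.88, so 2 of 3 mice had the higher value in Ly6Chigh monocytes. In raw Ct the same differences (Ly6Chigh minus Ly6Clow, log2) were −7.03, −2.0 and 3.02, so the sign in mouse 2 differed from that relative to U6. In mouse 2 the median Ct of the tested card A assays was also later in Ly6Chigh, at 30.96 against 27.98 in Ly6Clow. Relative to that median, the mouse 2 difference of miR-148a was 0.99. Without the Ly6Chigh sample of mouse 1, the difference relative to U6 was 2.06 (standard error 0.86, 95% confidence interval −0.25 to 4.38), with an adjusted p of 0.965 in limma.

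Relative to U6, miR-148b was at −1.32, −7.31 and −8.20 in the Ly6Chigh samples and at −9.16, −8.22 and −9.05 in the Ly6Clow samples. All Ly6Chigh values lay above all Ly6Clow values, by a gap of 0.015, which is far below 1 step of the Ct values. A 2-sided exact permutation test over samples, not paired by mouse, gave p = 0.1 and cannot go lower with 3 samples per subset. The means were −5.61 ± 3.74 (SD, n = 3) and −8.81 ± 0.51 (SD, n = 3), a difference of 3.20 (standard error 2.23, 95% confidence interval −2.27 to 8.67) with an adjusted p of 0.985 in limma.

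The within-mouse differences of miR-148b relative to U6 were 7.84, 0.91 and 0.85, positive in 3 of 3 mice, as for 8.46% of the tested assays (7.87% on card A), and in raw Ct they were 4.98, −2.99 and 2.00. Most of the mean came from mouse 1. Without its Ly6Chigh sample, the difference relative to U6 was 1.05 (standard error 0.86, 95% confidence interval −1.27 to 3.37), with an adjusted p of 0.965 in limma.

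Relative to U6, miR-152 was at −11.29, −8.30 and −9.19 in the Ly6Chigh samples and at −11.16, −10.22 and −10.04 in the Ly6Clow samples. As for miR-148a, the Ly6Chigh samples of mice 2 and 3 were above all Ly6Clow samples and that of mouse 1 was not. The means were −9.59 ± 1.54 (SD, n = 3) and −10.47 ± 0.60 (SD, n = 3), a difference of 0.88 (standard error 1.54, 95% confidence interval −2.90 to 4.66) with an adjusted p of 0.985 in limma.

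The within-mouse differences of miR-152 relative to U6 were −0.13, 1.91 and 0.85, and in raw Ct they were −2.99, −1.98 and 2.00. Mouse 1 was near 0 relative to U6 and below 0 in raw Ct. Without its Ly6Chigh sample, the difference relative to U6 was 1.73 (standard error 0.88, 95% confidence interval −0.65 to 4.11), with an adjusted p of 0.965 in limma.

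None of the 3 members passed an adjusted p of 0.05 in limma, where 0 of the 201 tested assays (0%) passed. At an unadjusted p under 0.05, the count was 0 of 3 members against 2 of the 201 assays (0.995%). The adjusted p was 0.985 for every tested assay and so does not rank the members. Their unadjusted p in limma was 0.955 for miR-148a, 0.202 for miR-148b and 0.590 for miR-152. The paper on these data, in contrast, lists miR-148a as upregulated in Ly6Chigh monocytes where its mouse datasets intersect. It states an adjusted P of 0.05 or less but names no test, and those datasets include a beadchip series. Among the members, 2 of 3 had a positive difference, against 39.8% of the tested assays (36.2% on card A). Their median was 0.88, whereas the median was −0.45 over all tested assays and −1.14 over those of card A. Without the Ly6Chigh sample of mouse 1, all 3 were positive, but so were 67.2% of the tested assays and 78.7% of those on card A. Their median was then 1.73, against a median of 0.63 over all tested assays and 0.89 on card A.

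Values above all Ly6Clow values in every Ly6Chigh sample were found for 1 of the 3 members, miR-148b, against 2.99% of the tested assays (4.72% on card A). With the Ly6Chigh samples of mice 2 and 3 alone, they were found for 3 of 3 members, against 14.9% of all tested assays and 22.8% of those on card A. A higher Ly6Chigh value within both of these mice was likewise found for 3 of 3 members, against 30.3% of all tested assays and 34.6% on card A. For each member taken alone, the exact permutation test without the Ly6Chigh sample of mouse 1 gave a 2-sided p = 0.2, and no lower value is possible with 2 samples against 3. Since all assays of a card share 1 U6 value, the shift of U6 enters every member alike.

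**Figure D2:**
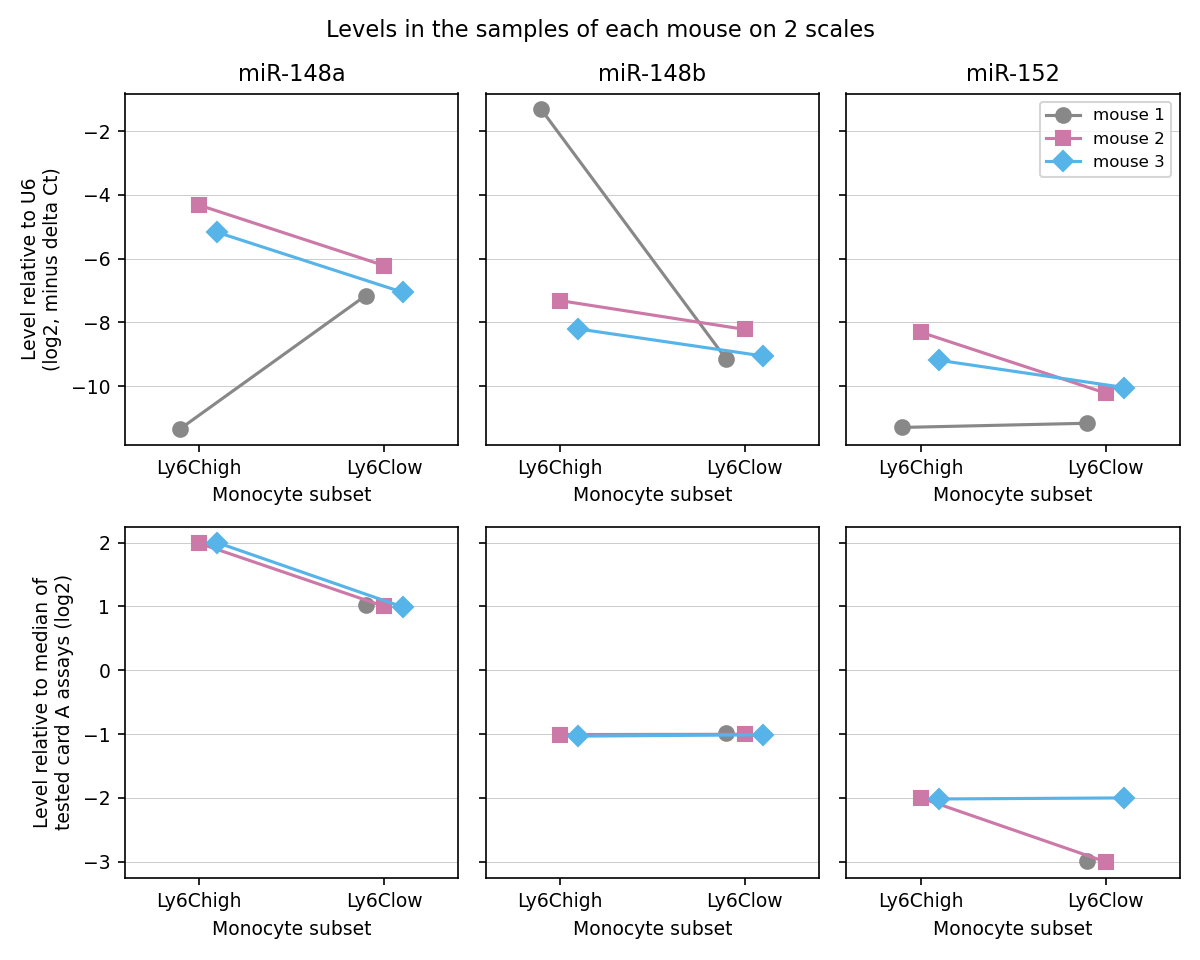
Levels of miR-148a, miR-148b and miR-152 (log2, 1 point per sample, lines join the 2 samples of a mouse), relative to U6 in the upper panels and to the median of the tested card A assays in the lower panels, where the Ly6Chigh sample of mouse 1 is left out because its card median was an undetected reaction. In the lower panels, for mice 2 and 3, miR-148a is at about 2 in Ly6Chigh and about 1 in Ly6Clow monocytes, and miR-148b stays at about −1.

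The members were also placed on a scale that does not use U6. For each sample, the level was expressed relative to the median Ct of the 127 tested card A assays. In the Ly6Chigh sample of mouse 1 this median was 40, an undetected reaction, so the scale has no meaning there and the other 5 samples were compared.

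miR-148a lay 1.99 and 2.00 above the card median in the Ly6Chigh samples of mice 2 and 3, and 1.02, 1.00 and 0.99 above it in the Ly6Clow samples of mice 1, 2 and 3. The subsets did not overlap, and the gap was about 1 step of the Ct values. The difference was 0.99 (standard error 0.21, 95% confidence interval 0.37 to 1.61), with an unadjusted p of 0.0122 and an adjusted p of 0.231 in limma.

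miR-148b lay below the card median, at −1.01 and −1.03 in the same Ly6Chigh samples and at −0.98, −1.0 and −1.01 in the Ly6Clow samples. The values of the subsets were within 0.1 of each other. The difference was −0.022 (standard error 0.21, 95% confidence interval −0.64 to 0.60), with an adjusted p of 0.997 in limma.

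miR-152 was at −2.0 and −2.02 in the Ly6Chigh samples and at −2.98, −3.0 and −2.0 in the Ly6Clow samples. The Ly6Clow sample of mouse 3 was level with the Ly6Chigh samples, and those of mice 1 and 2 were lower by about 1 step. The difference was 0.65 (standard error 0.44, 95% confidence interval −0.62 to 1.93), with an adjusted p of 0.797 in limma.

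On this scale, 1 of 3 members, miR-148a, had both Ly6Chigh values above all Ly6Clow values, against 3.98% of the tested assays and 6.3% of those on card A. No member and none of the 201 assays passed an adjusted p of 0.05 in limma, and 22 assays (10.9%), miR-148a among them, had an unadjusted p under 0.05. The median difference of all tested assays was −0.36 on this scale and that of card A was −0.18. Because the values come in steps, a spread far below 1 cycle between samples cannot be read as precision.

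**Figure D3:**
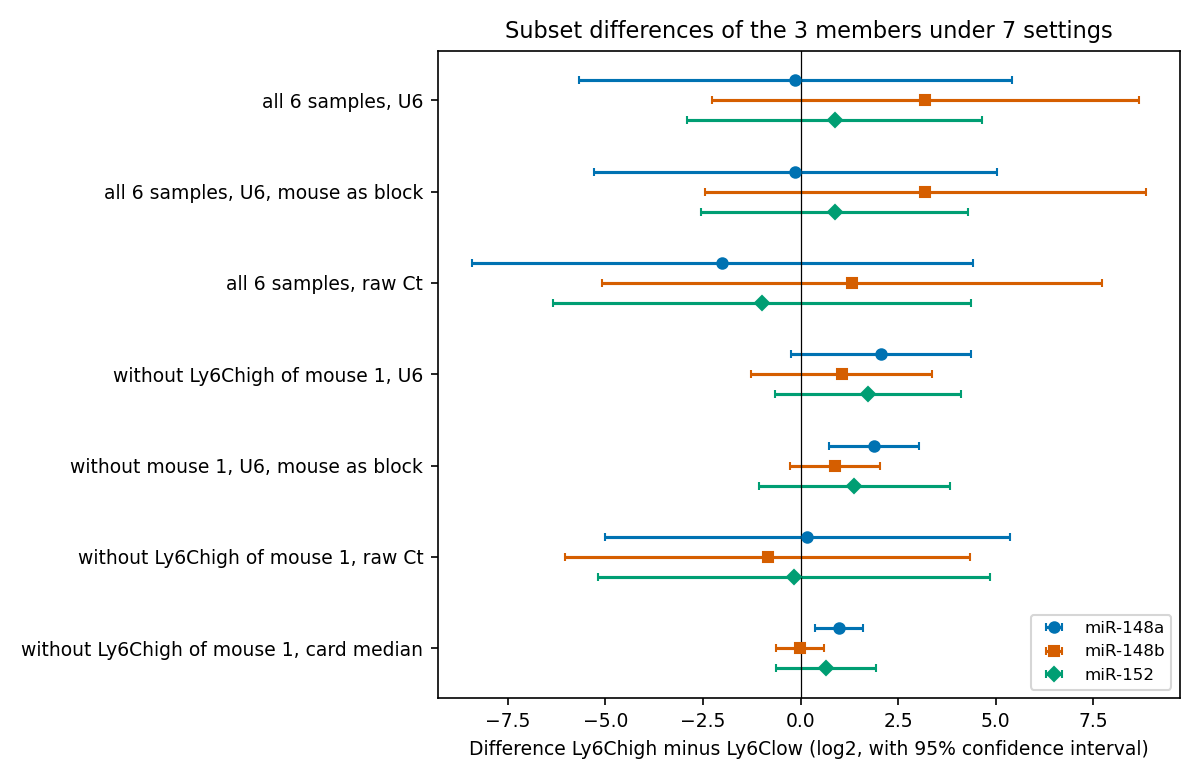
Difference between subsets (Ly6Chigh minus Ly6Clow, log2) of miR-148a, miR-148b and miR-152 in limma, with 95% confidence intervals, under 7 combinations of samples, normalization and mouse as a block. With all 6 samples every interval covers 0, and relative to the card median without the Ly6Chigh sample of mouse 1 the point of miR-148a is at 0.99 and that of miR-148b at −0.022.

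The members were also compared with each other inside each sample, where neither U6 nor any other reference enters. The level of miR-148a minus that of miR-148b was −10.01, 3.00 and 3.03 in the Ly6Chigh samples of mice 1, 2 and 3 and 2.00 in each of the 3 Ly6Clow samples. In mice 2 and 3, the distance between these near-identical miRNAs was wider in Ly6Chigh monocytes by 0.99 and 1.03, and in mouse 1 it was inverted. Over all 6 samples the subset difference was −3.33 (2-sided exact permutation test, p = 1, and 1 after adjustment over the 3 pairs of members). Without the Ly6Chigh sample of mouse 1 it was 1.01 (2-sided exact permutation test, p = 0.2, and 0.6 after adjustment over the 3 pairs).

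The level of miR-148a minus that of miR-152 was −0.04, 3.99 and 4.01 in the Ly6Chigh samples and 4.00, 4.00 and 2.99 in the Ly6Clow samples. The subsets overlapped. The subset difference was −1.01 (2-sided exact permutation test, p = 0.7) and 0.34 without the Ly6Chigh sample of mouse 1 (p = 0.8 in the same exact test).

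The level of miR-148b minus that of miR-152 was 9.97, 0.99 and 0.98 in the Ly6Chigh samples and 2.01, 2.00 and 0.99 in the Ly6Clow samples. The subset difference was 2.32 (2-sided exact permutation test, p = 0.9), and without the Ly6Chigh sample of mouse 1 it was −0.68 (p = 0.4 in the same exact test). In mouse 3 the distance was the same in both subsets within 0.01 cycles. Over all 6 samples, the subset differences of the 3 pairs were within the spread between samples. Without the Ly6Chigh sample of mouse 1, the subset difference between miR-148a and miR-148b was about 1 step of the Ct values. The spread within each subset was far below 1 step, which cannot be read as precision. The exact permutation test with 2 samples against 3 cannot reach p = 0.05.

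**Figure D4:**
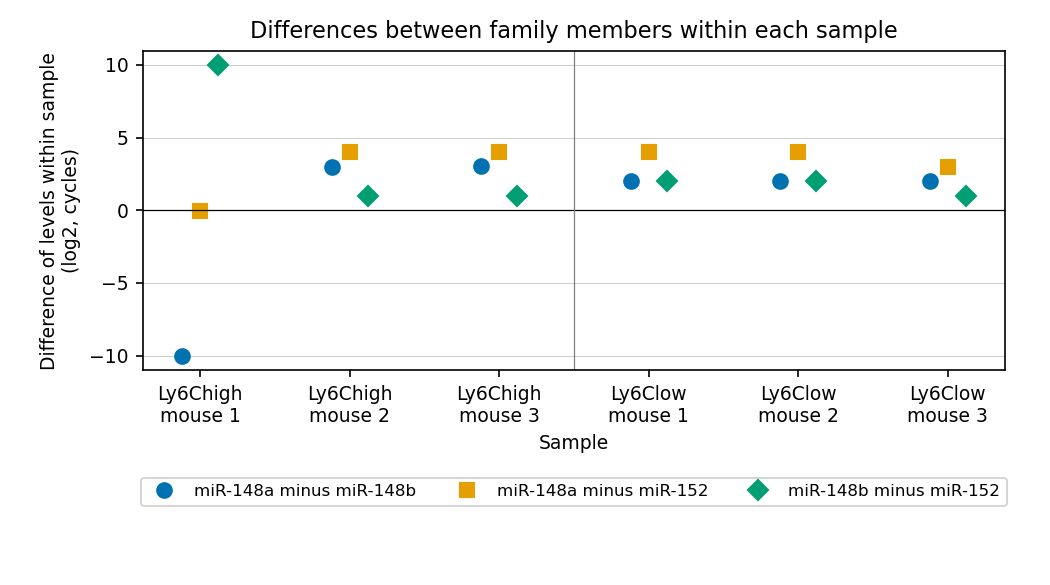
Difference in level (log2, in cycles) between each pair of family members within each of the 6 samples (1 point per sample and pair, no error bars). The distance from miR-148a to miR-148b is about 3 in the Ly6Chigh samples of mice 2 and 3 and 2 in all Ly6Clow samples, and it is −10.01 in the Ly6Chigh sample of mouse 1.

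The opposite strands of the hairpins are the arms that are usually degraded. The mature opposite arm of Mir148a is shown because it is the strand that gave a signal, with its own seed in capitals, from RefSeq on GRCm38.p6.
miR-148a-5p: aAAGUUCUgagacacuccgacu
It lies at chr6:51269867-51269888 on the minus strand. The array lists this arm as hsa-miR-148a#, an assay designed on the human name, on card B, although the sample labels name the primer pool of card A alone.

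hsa-miR-148a# had a Ct of 31.99, 40 and 30.97 in the Ly6Chigh samples of mice 1, 2 and 3 and of 30.18, 29.98 and 40 in the Ly6Clow samples. It was undetected in 1 sample of each subset, so its mean depends on the value given to an undetected reaction. Its difference relative to U6 was 0.94 (standard error 3.08, adjusted p = 0.985 in limma), within a 95% confidence interval of −6.60 to 8.49. The opposite arm of Mir148b, assayed as rno-miR-148b-5p, was undetected in all 6 samples and was not tested.

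The miR-130 and miR-301 family carries the same 7 bases shifted by 1 position, which is why 3 of its sequences are shown, here with the shared bases 1 to 7 in capitals, from RefSeq on GRCm38.p6.
miR-130a-3p: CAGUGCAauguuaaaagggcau
miR-130b-3p: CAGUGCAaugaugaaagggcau
miR-301a-3p: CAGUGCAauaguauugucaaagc
The first 2 map to chr2:84741116-84741137 and chr16:17124071-17124092, both on the minus strand. The third maps to chr11:87113054-87113076 on the plus strand, within the span of Ska2. In RefSeq, 7 mature mouse miRNAs start with these bases. With this offset, bases 2 to 8 of these miRNAs read AGUGCAA, a different seed.

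Of the 5 assays listed for this group (miR-130a, miR-130b, miR-301a, miR-301b and miR-721), 4 could be tested and none passed an adjusted p of 0.05 in limma. miR-721 had a Ct under 35 in both samples of mouse 2, at 28.97 and 25.00, and in no other sample. Relative to U6, 2 of the 4 were higher in Ly6Chigh monocytes, with a median difference of 0.19. Without the Ly6Chigh sample of mouse 1, in which miR-301a and miR-301b were undetected, all 4 were higher, as were 78.7% of the tested card A assays, with a median of 2.57 against 0.89 on the card. That compares with a median of 1.73 and 3 of 3 higher for the miR-148 and miR-152 family, in the same samples and on the same card. The difference between the groups was not tested.

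Some tested card A assays followed each member closely over the 6 samples. By Pearson's r of −ΔCt over these 6 samples, which come from 3 mice and share the U6 value of each card, the nearest to miR-148a were miR-15b (0.996), miR-365 (0.990) and miR-103 (0.990). The nearest to miR-148b were miR-18a (0.978), miR-28 (0.976) and miR-192 (0.943). The nearest to miR-152 were miR-27b (0.946), miR-331-3p (0.906) and miR-138 (0.891).

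Within the family, r was 0.83 between miR-148a and miR-152, −0.77 between miR-148a and miR-148b, and −0.36 between miR-148b and miR-152. Without the Ly6Chigh sample of mouse 1, the coefficients over the other 5 samples were 0.93, 0.96 and 0.88, so both negative signs rested on that sample. For the 3 assays nearest to miR-148b, r was 0.73, 0.80 and 0.84 without it, below the 0.96 of miR-148a. The Ly6Chigh sample of mouse 1 holds the extreme Ct of miR-148a and miR-148b and of the 3 nearest assays of each. In that sample miR-15b had a Ct of 30.02 and miR-365 one of 40, their latest of all 6, while miR-18a had a Ct of 22.99, its earliest.

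Markers of other cells were at the following levels, and their part in the members' values was not tested. Of the 3 erythroid assays (miR-451, miR-144 and miR-486), 1 was detected in each sample other than the Ly6Chigh sample of mouse 1, and miR-144 and miR-486 were at 40 in all 6 samples. Their summed level relative to U6 on the log2 scale was −11.18 and −8.29 in the Ly6Chigh samples of mice 3 and 2 and −11.13 to −10.20 in the Ly6Clow samples. All 3 lymphocyte assays (miR-150, miR-181a and miR-342-3p) were detected in these 5 samples, at −2.20 and 0.92 in Ly6Chigh and −0.98 to 0.82 in Ly6Clow monocytes. The paper on these data describes miR-150 as higher in Ly6Clow monocytes and miR-342-3p as higher in human non-classical monocytes. Neither is thus a marker of lymphocytes alone. Of the 2 endothelial and platelet assays (miR-126-3p and miR-126-5p), 1 to 2 were detected in these samples, at −8.21 and −6.24 against −10.04 to −8.14. Of the 5 epithelial assays, 1 to 4 were detected per sample, and their summed level was highest in the Ly6Chigh sample of mouse 1, at 0.69 against −7.35 to −5.23 elsewhere. That sum came from miR-200b, at 0.69 in this sample. There miR-200c was at −7.30, within its −8.04 to −5.37 elsewhere, and miR-200a, miR-141 and miR-429 were at a Ct of 40. The liver miRNA miR-122 was detected in 3 of the 6 samples, and the 3 muscle assays in at most 1 assay per sample.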

How the data were processed

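Both tables used here hold log2-scale values deposited by the authors for 6 samples, raw Ct with undetected reactions at 40 and ΔCt after subtraction of U6 from the same card. The subtraction was checked: each sample and card had 1 constant, equal to its mean U6 Ct except on card B of the Ly6Clow sample of mouse 1 (21.394 against 21.405). A further table holds the authors' own within-mouse ratios and was not used. How Ct was called (software, threshold) is not given in the sources used here.

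Samples were grouped by title. Of 768 wells, 18 controls were left out. The 201 miRNA assays detected (Ct below 35) in 3 or more of the 6 samples were tested with limma 3.58.1 in R 4.3.3. The fit used lmFit and eBayes on −ΔCt, no block, and Benjamini-Hochberg adjustment over all 201 (threshold 0.05). It was tried on simulated data with shifts far larger than the members' differences. That trial does not show whether differences of the members' size would pass. Single values were compared by exact permutation over samples, which leaves out the pairing by mouse (scipy 1.17.1). Same-numbered samples come from 1 mouse per the labels, and their deviations from the subset means correlated at 0.32, 0.62 and 0.72 across tested assays for mouse 1, mouse 2 and mouse 3 respectively (card A alone −0.09, 0.41 and 0.41).

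The text names the 3 members, their opposite strands, the miRNAs with the shifted seed, fixed cell type markers and, for each member, the 3 assays of its card with the highest correlation. Members, lists and tests were chosen with earlier results of these data known. Alternatives covered normalization, filters, undetected reactions, the mouse as a block, the variance model, and samples or mice left out. After the data were seen, 2 more were added, the card median and raw Ct, each without the Ly6Chigh sample of mouse 1. The number of samples and the steps of about 1 cycle limit the precision.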

Additional observations from a re-analysis of the deposited data

How the results depend on the processing

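The count of assays past the threshold was 0 of 201 in the reported fit and 0 under all 26 alternatives (limma, 2 assays at an unadjusted p under 0.05, 0 to 22 under the alternatives), as was the count of the 3 members. The adjusted p ranged from 0.231 to 1 for miR-148a, from 0.443 to 1 for miR-148b and from 0.493 to 1 for miR-152. Leaving out each sample or mouse, the difference ranged from −1.44 to 2.06 for miR-148a, from 0.88 to 4.49 for miR-148b and from 0.23 to 1.73 for miR-152. The sign of miR-148a, −0.13 in the reported fit, turned without the Ly6Chigh sample of mouse 1 (2.06), without the Ly6Clow sample of mouse 2 (0.16) and without mouse 1 (1.89).

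With the median of the tested assays of each card as the reference, which is an undetected reaction on card A of the Ly6Chigh sample of mouse 1, the differences were 2.33 for miR-148a and −0.63 for miR-148a#, and 0.99 and 1.32 for miR-301a and miR-301b. With raw Ct they were −0.99 for miR-152, −0.35 for miR-130b and −0.93 for miR-148a#, while the median of all tested assays was −2.32. With card A of the Ly6Chigh sample of mouse 1 as missing, they were 2.06 for miR-148a, 2.56 for miR-301a and 2.89 for miR-301b. With a floor of 35 cycles miR-301a and miR-301b were at 0.20 and 0.53, and with undetected reactions as missing at 2.56 and 2.89.

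Without the Ly6Chigh sample of mouse 1, the card median gave 0.99 for miR-148a, −0.022 for miR-148b, −1.39 for miR-148a#, 1.49 for miR-301a and 1.82 for miR-301b. Raw Ct gave 0.18 for miR-148a, −0.83 for miR-148b, −0.16 for miR-152, −2.10 for miR-148a#, −0.17 for miR-130b, 0.67 for miR-301a and 1.01 for miR-301b. These 2 settings were chosen after seeing the data. For the other assays with 1 sample or mouse left out, the range was −2.32 to 4.01 for miR-148a#, 1.20 to 1.87 for miR-130b, 2.08 to 4.02 for miR-130a, −3.63 to 2.56 for miR-301a and −3.18 to 2.89 for miR-301b.

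With the mouse as a replicate block and all 6 samples, the differences of the members were unchanged at −0.13, 3.20 and 0.88, with adjusted p of 0.965, 0.949 and 0.949 in limma, and the paired fit changed no call. With the block and without mouse 1, they were 1.89, 0.88 and 1.38, with standard errors of 0.22, 0.22 and 0.46. The adjusted p in limma was 0.443, 0.443 and 0.493. In that fit 16 of the 201 tested assays had an unadjusted p under 0.05. With Ct values in steps of about 1 cycle, such small standard errors cannot be read as precision. The differences of miR-301a and miR-301b were 2.37 and 2.38 in the same fit. The subset difference between miR-148a and miR-148b within samples, −3.33 in all samples, ranged with 1 sample or mouse left out from −5.51 to 1.01, that between miR-148a and miR-152 from −2.03 to 0.50, and that between miR-148b and miR-152 from −0.68 to 3.98. The exact sign-flip test over the mice gave p = 1, 0.75 and 1. Each extreme of the opposite sign was reached without the Ly6Chigh sample of mouse 1 or without mouse 1. The cause of these changes was not tested.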
